A study of Homo sapiens with 6 samples.

Results

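In 26 human genes, probe sets for the same gene moved in opposite directions after the cyclin-dependent kinase inhibitor dinaciclib. They were found in MDA-MB-231 cells, a triple-negative breast cancer line of mesenchymal character, on an oligonucleotide array that gave 1 intensity per probe set. A gene was included when 1 of its probe sets had a mean log2(value + 1) at least 1 higher and another at least 1 lower in 3 dinaciclib arrays than in 3 baseline arrays. Only probe sets annotated to that gene alone entered, and only those whose mean intensity reached 64 in at least 1 group, the intensity floor. Of 11963 genes named by at least 1 probe set, 4310 had 2 or more probe sets, 2200 of them had 2 or more at the floor, and 26 met the rule, 1.18% of those 2200. The genes were thus chosen by their log2 changes in this contrast, which are given as a description without a test. A probe set at 1 or more is called raised here and one at -1 or less lowered, by size and not by a test.

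The dinaciclib group held 3 samples, F, 4 and 5, taken 12 h after the drug was added to RPMI medium from a solution in DMSO, and the baseline group held 3 samples, E, 4 and 5, taken at 0 h. Values of a group follow in that order throughout, in linear units as deposited. The labels name neither a dose nor separate cultures, and untreated cells at 12 h are not analysed here, so the drug cannot be told apart from time in culture, handling or solvent, and the spread between samples may be technical.

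A probe set is a group of short probes that together read a stretch of a transcript, usually near its end. A human gene can give several transcripts, through alternative promoters, splicing and ends formed inside introns or early in the last exon, and probe sets of a gene need not read all of them. Dinaciclib inhibits several cyclin-dependent kinases, among them CDK9, which releases paused RNA polymerase, CDK1, CDK2 and CDK5. A further kinase of this family, CDK12, is known for its part in keeping the polymerase from ending transcripts early within long genes. The targets named are not a complete list, and inhibition of CDK12 was not measured here. The position of the probe sets along their transcripts is not used here, so the values below do not say which transcript a probe set read.

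Median intensities were 40.6 to 46.8 in dinaciclib arrays and 53.3 to 66.2 in baseline arrays, so the groups differed in overall brightness. The arrays named by a letter stood apart in a control probe set for ribosomal RNA. It read 1155, 8688 and 9061 in dinaciclib arrays and 736, 8273 and 8642 in baseline arrays, lowest in F and E. A fit with letter or number as a covariate made 4700 calls, and all 26 genes met the rule in it, since each group held 1 lettered and 2 numbered arrays. All 5 listed markers of the line (VIM, CD44, AXL, CAV1, KRT18) reached a mean of 64 in at least 1 group, 0 of 12 markers of fibroblasts, leukocytes, endothelium and adipocytes did, and of 7 markers that should be low ERBB2, EPCAM and GATA3 did while ESR1, PGR, CDH1 and FOXA1 did not. Over all 22215 probe sets, 857 (3.86%) were higher and 2971 (13.4%) lower after dinaciclib (limma, Benjamini-Hochberg adjusted p under 0.05). Together these made 3828 calls, against 1715 without baseline 4, 1623 without baseline 5, 2093 without dinaciclib 4, 2138 without dinaciclib 5 and 2170 in the numbered arrays alone. The balance followed the scaling, with 2132 higher and 2335 lower after quantile normalization and 3487 higher and 1938 lower after centring on the array median. The median log2 change over all probe sets was -0.21 as deposited, 0.03 after quantile normalization, 0.24 after median centring and -0.29 after centring on spiked controls, which gave 520 higher and 2418 lower.

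Probe sets of a gene that changed by 1 or more in both directions were uncommon, whereas opposite signs of any size were found in 505 of the 2200 genes (23.0%) and a gap of 2 or more in 103 (4.68%). Of the 2200 genes, 268 (12.2%) had every probe set at the floor lowered, 38 (1.73%) had every one raised, and 1427 (64.9%) had none past 1 either way. The gap between a gene's highest and lowest change had a median of 0.293 log2 units over the 2200 genes and of 3.38 in the 26, which were chosen for it. Centring shifts every probe set on an array equally and leaves this gap as it is.

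**Figure D1:**
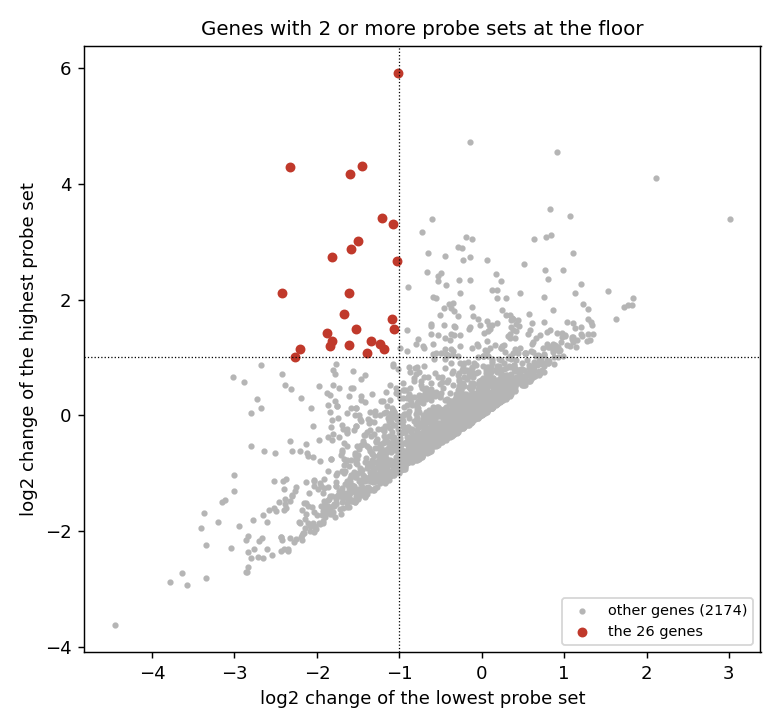
Each point is 1 of 2200 genes with 2 or more probe sets at the intensity floor, placed by the log2 change (dinaciclib minus baseline, 3 arrays each) of its lowest probe set on the x axis and of its highest on the y axis. The 26 genes, in red, fill the upper left corner beyond the dotted lines at -1 and 1, and most other genes lie close to the diagonal, where the probe sets of a gene changed alike.

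The 26 genes had 100 probe sets, of which 87 were at the floor and 13 below it. Of the 87, 35 were raised, 35 lowered and 17 lay between. Across all 6215 probe sets at the floor of genes with 2 or more, 5.86% were raised and 18.9% lowered, and nothing is read from the difference because the rule required both in each gene. The highest change of a gene ranged from 1.00 to 5.91 with a median of 1.71, and the lowest from -2.42 to -1.01 with a median of -1.56. Relative to the median of all probe sets these medians were 1.92 and -1.35. In 25 of the 26 genes the groups did not overlap on either the highest or the lowest probe set, and the exception was QKI. Of all probe sets at the floor, 16.1% had no overlap upward and 37.2% downward. Choosing probe sets by changes of 1 or more in these arrays favours separate groups, so nothing is read from the difference. Calls at the limma threshold are not counted for these probe sets, because the rule chose them by the same contrast.

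**Figure D2:**
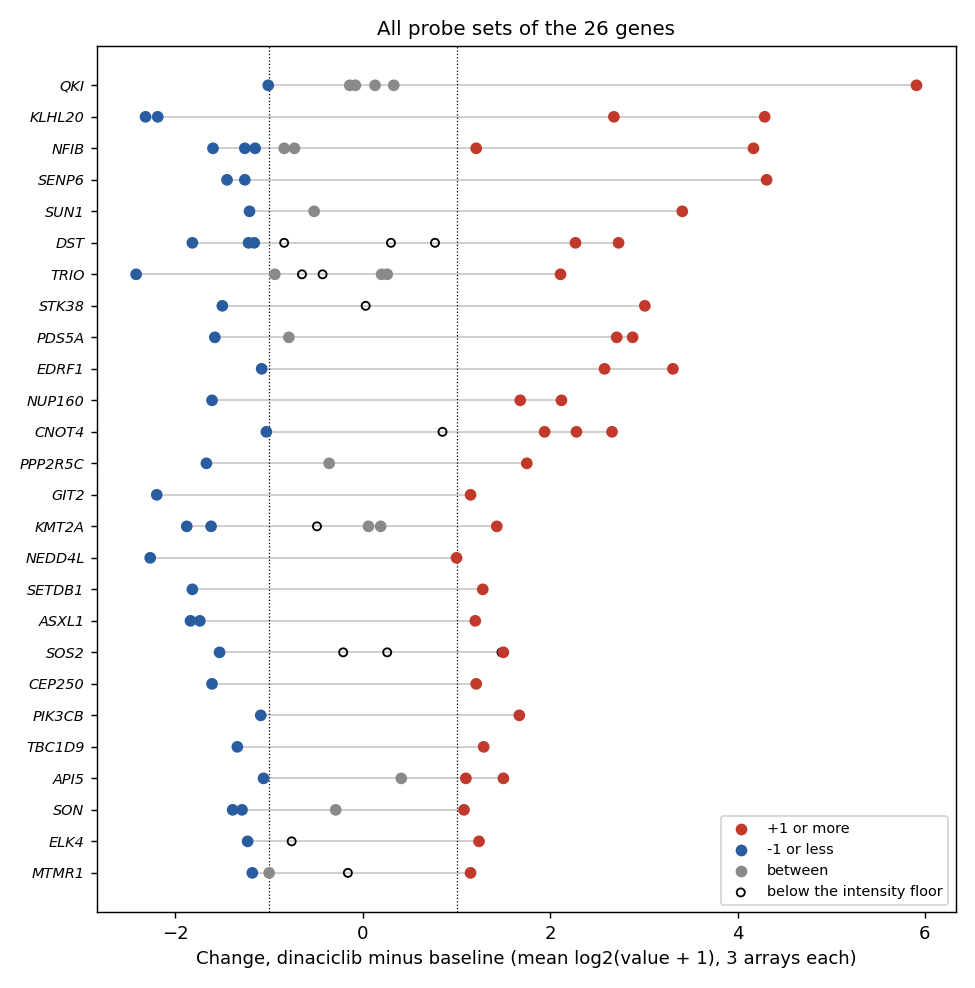
Log2 change of all 100 probe sets of the 26 genes (x axis, dinaciclib minus baseline, mean log2(value + 1) of 3 arrays each), with genes ordered by the gap between their highest and lowest probe set. Red points are at 1 or more, blue at -1 or less, grey between, and open circles are the 13 probe sets below the intensity floor. Gaps run from 2.33 in MTMR1 to 6.92 in QKI, whose raised probe set was close to 0 at baseline.

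Many of the raised probe sets were dim at baseline. The highest probe set had a baseline mean under 64 in 16 of 26 genes, and the lowest had a dinaciclib mean under 64 in 9. Both stayed at 64 or more in both groups in 7 genes, DST, NUP160, PDS5A, ASXL1, SON, API5 and NEDD4L. At the threshold, NEDD4L (smaller change 1.001) and QKI (1.005) lay just inside, and TMPO (1.16 and -0.99) and SLC7A1 (1.12 and -0.91) just outside. Represented by its brightest probe set alone, a gene would have read lower after dinaciclib in 19 cases and higher in 7, whereas the mean of all its probe sets was higher in 13 and lower in 13. These counts are by sign alone and include small changes, such as 0.06 in KMT2A and -0.14 in QKI. The median change over all probe sets was itself -0.21.

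Regulators of ubiquitin and SUMO, small proteins joined to other proteins as tags, made up the first group. KLHL20, a kelch protein that brings substrates to the CUL3 ubiquitin ligase, had 2 raised and 2 lowered probe sets, none between and a gap of 6.61. Probe set 210634_at read 305, 386 and 335 in dinaciclib arrays, against 18.8, 20.6 and 11.4 in baseline arrays (log2 change 4.29). Its neighbour 210635_s_at read 241, 281 and 221 in dinaciclib arrays, against 37.9, 41.9 and 33.5 in baseline arrays (log2 change 2.68). Every dinaciclib array lay above every baseline array on these raised probe sets. Probe set 204176_at read 102, 44.6 and 42.1 in dinaciclib arrays, against 328, 459 and 167 in baseline arrays (log2 change -2.32), and it varied more between arrays than the others. Probe set 204177_s_at read 93.5, 81.4 and 60.5 in dinaciclib arrays, against 317, 379.8 and 372 in baseline arrays (log2 change -2.19). On the lowered probe sets every dinaciclib array lay below every baseline array.

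SENP6, a protease that removes SUMO from chains of it, had 1 raised and 2 lowered probe sets and a gap of 5.76. Probe set 214790_at averaged 10.33 ± 0.11 log2 units in dinaciclib arrays and 6.02 ± 0.50 in baseline arrays (SD, n = 3 each). It read 1213, 1399 and 1258 in dinaciclib arrays, against 43.7, 88.0 and 68.2 in baseline arrays (log2 change 4.31) with no overlap. The others lay lower in every dinaciclib array than in any baseline array. Probe set 202318_s_at read 318, 389 and 299 in dinaciclib arrays, against 696, 893 and 821 in baseline arrays (log2 change -1.26). Probe set 202319_at read 39.0, 58.6 and 61.5 in dinaciclib arrays, against 112, 169.5 and 158 in baseline arrays (log2 change -1.45).

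NEDD4L, a ubiquitin ligase of the HECT type known for marking the epithelial sodium channel for removal, met the rule only just. Probe set 212445_s_at read 2571, 3707 and 3387 in dinaciclib arrays, against 1167, 1964 and 1756 in baseline arrays (log2 change 1.0), with groups that did not overlap. Probe set 212448_at, at 238, 171 and 118 in dinaciclib arrays, against 667, 954 and 856 in baseline arrays (log2 change -2.27), moved further. CNOT4, a RING ubiquitin ligase bound to the CCR4-NOT deadenylase, had 3 raised probe sets. The highest, 210203_at, read 188, 222 and 210.2 in dinaciclib arrays, against 35.8, 34.6 and 26.1 in baseline arrays (log2 change 2.66), and the others were at 2.28 and 1.94. Against them, 203291_at read 133, 102 and 86.6 in dinaciclib arrays, against 196, 249.5 and 206 in baseline arrays (log2 change -1.03).

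Other genes of the SUMO pathway were counted on the same fit. In 23 probe sets of SUMO pathway genes other than SENP6, 2 rose (8.7%), 3 fell (13%) and 18 did not pass, with a median log2 change of 0.03, beside 3.86% and 13.4% and a median of -0.21 over all probe sets. PIAS3, a SUMO ligase, fell by 1.72 (standard error 0.25, limma, Benjamini-Hochberg adjusted p = 0.0082) and passed in all 14 other fits that kept it, leaving the replicate block aside. The 2 that rose were SUMO4 on 215452_x_at (1.12, standard error 0.24, limma, Benjamini-Hochberg adjusted p = 0.0257) and RNF4 (0.93, standard error 0.25, limma, Benjamini-Hochberg adjusted p = 0.0482). SUMO4 passed in 8 and RNF4 in 6 of 14 other fits. Among relatives of SENP6, the SUMO protease SENP3 fell on 203871_at (-0.94, standard error 0.22, limma, Benjamini-Hochberg adjusted p = 0.0334) but passed in only 5 of 14 other fits, and its other probe set was at 0.43 and did not pass. SENP5 had changes of -0.19, 0.28 and -0.17 and SENP7 one of -0.56, none of which passed. In 37 probe sets of CUL3 and kelch adaptor genes other than KLHL20, 1 rose (2.7%), 3 fell (8.11%) and 33 did not pass, with a median of -0.28. KLHL28 rose (log2 change 1.57, standard error 0.21, limma, Benjamini-Hochberg adjusted p = 0.00684). KLHL22 fell on 2 of its 5 probe sets (-3.98, below the floor, and -1.88), and KLHL26 fell (-1.36, also below the floor, in 8 of 13 other fits). CUL3 itself had changes of -0.04, 0.45 and -0.67 and did not pass. Over these lists, the nuclear factor I family and the isoform genes described later, 38 probe sets passed, 22 without baseline 4, 20 without baseline 5, 21 without dinaciclib 4, 22 without dinaciclib 5 and 66 under median centring.

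**Figure D3:**
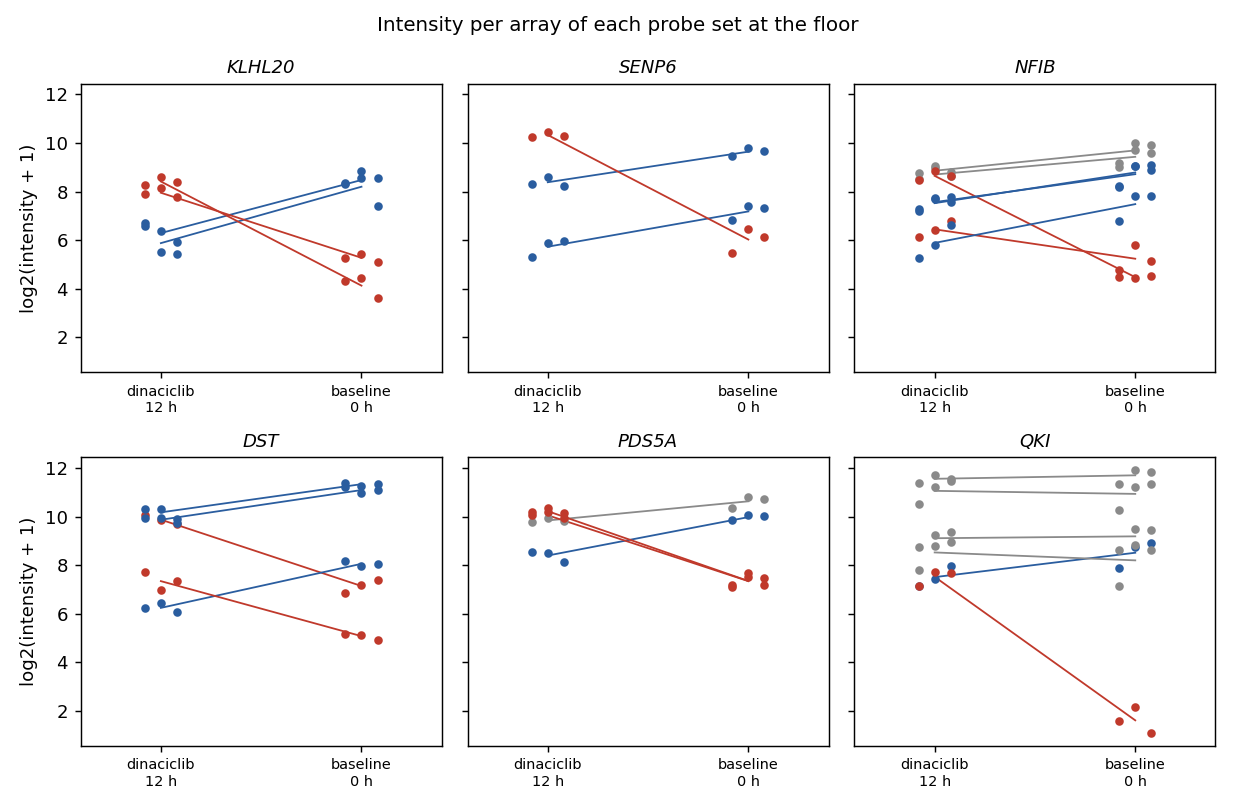
Log2(intensity + 1) of each probe set at the floor (y axis) in 3 dinaciclib arrays and 3 baseline arrays (x axis), for 6 of the genes. Points are arrays, with F or E on the left, 4 in the middle and 5 on the right of each cluster, lines join group means, and red, blue and grey mark raised, lowered and intermediate probe sets. Red and blue lines slope in opposite directions in every panel, and the 4 grey lines of QKI stay nearly level.

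NFIB, a transcription factor of the nuclear factor I family, had 7 probe sets, all at the floor. Probe set 211466_at averaged 8.65 ± 0.17 log2 units in dinaciclib arrays and 4.47 ± 0.05 in baseline arrays (SD, n = 3 each). It read 358, 454 and 394 in dinaciclib arrays, against 21.0, 20.6 and 22.0 in baseline arrays (log2 change 4.17). Probe set 211467_s_at, built on the same source record, read 69.6, 83.4 and 109.8 in dinaciclib arrays, against 26.4, 54.0 and 34.3 in baseline arrays (log2 change 1.21). The lowest was 213033_s_at, which read 37.2, 54.0 and 97.1 in dinaciclib arrays, against 109, 227 and 227 in baseline arrays (log2 change -1.6), with no overlap of groups. A pair of the remaining probe sets were lowered as well, 213032_at at -1.26 and 213029_at at -1.15, and 209289_at and 209290_s_at were at -0.84 and -0.73, between the thresholds. Of its relatives, NFIC fell on 1 of its 2 probe sets (-1.05, standard error 0.25, limma, Benjamini-Hochberg adjusted p = 0.0337), which passed in 6 of 14 other fits, and its other probe set (-0.17) and that of NFIX (-0.10) did not pass. That made 0 rises and 1 fall in 3 probe sets of the family outside NFIB.

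The start regions of KLHL20, SENP6 and NFIB are printed because each is the annotated start of a gene whose probe sets moved both ways. They come from RefSeq (GRCh38.p14) and run 5′ to 3′ from 250 bases before to 50 after the start. Capitals mark matches on either strand to CCGGAA, the core of ETS factor motifs, and to CCAAT. KLHL20 lies at GRCh38.p14 chr1:173714731-173715030, plus strand, SENP6 at GRCh38.p14 chr6:75601630-75601929, plus strand and NFIB at GRCh38.p14 chr9:14322338-14322637, minus strand.
KLHL20: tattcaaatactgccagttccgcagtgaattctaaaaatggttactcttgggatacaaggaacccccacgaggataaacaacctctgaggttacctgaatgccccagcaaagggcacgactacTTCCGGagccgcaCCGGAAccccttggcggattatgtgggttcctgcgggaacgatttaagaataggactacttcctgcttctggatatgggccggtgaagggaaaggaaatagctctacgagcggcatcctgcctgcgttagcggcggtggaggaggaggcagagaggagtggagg
SENP6: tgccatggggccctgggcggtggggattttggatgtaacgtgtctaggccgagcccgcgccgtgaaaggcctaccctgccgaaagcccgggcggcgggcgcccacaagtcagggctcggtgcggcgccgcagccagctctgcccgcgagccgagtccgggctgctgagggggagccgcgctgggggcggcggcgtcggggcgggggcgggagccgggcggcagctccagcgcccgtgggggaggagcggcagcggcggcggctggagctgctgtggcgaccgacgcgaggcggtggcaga
NFIB: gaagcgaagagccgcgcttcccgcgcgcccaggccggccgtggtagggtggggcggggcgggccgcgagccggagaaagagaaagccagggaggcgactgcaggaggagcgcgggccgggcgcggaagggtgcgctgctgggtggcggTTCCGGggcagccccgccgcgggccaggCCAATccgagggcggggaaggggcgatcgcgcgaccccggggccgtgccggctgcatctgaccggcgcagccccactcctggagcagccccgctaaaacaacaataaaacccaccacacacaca

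Of the 26 genes, 20 had an entry in that table. CCGGAA on either strand was found in 8 of them (40%), against 17.2% of 35116 promoters of the same length. CCAAT on either strand was found in 7 (35%) against 34.6%, and TATAAA on either strand in 0 against 11.5%. The motifs were picked after the genes were known, and a match is a description of letters only.

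ELK4, an ETS factor that binds DNA with the serum response factor, carried opposite changes of like size. Probe set 206919_at read 139.6, 154 and 111 in dinaciclib arrays, against 43.2, 70.0 and 58.2 in baseline arrays (log2 change 1.24). Probe set 214831_at read 30.7, 19.5 and 32.5 in dinaciclib arrays, against 70.1, 51.3 and 75.2 in baseline arrays (log2 change -1.23). EDRF1, a regulator of erythroid genes, had raised probe sets 215072_x_at and 208115_x_at, whose suffix marks probes that can match other sequences too. The first read 386, 243 and 242 in dinaciclib arrays, against 22.2, 32.7 and 28.9 in baseline arrays (log2 change 3.31), and the second was at 2.58. Its lowered probe set 213410_at read 214, 142 and 161 in dinaciclib arrays, against 358, 350.0 and 373 in baseline arrays (log2 change -1.08).

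Chromatin genes formed a further group. KMT2A, a histone lysine methyltransferase rearranged in leukaemias, had 6 probe sets. Probe set 220546_at read 57.3, 95.6 and 53.8 in dinaciclib arrays, against 14.6, 41.3 and 22.9 in baseline arrays (log2 change 1.43). Probe set 212080_at read 56.9, 61.7 and 27.2 in dinaciclib arrays, against 125, 209 and 191 in baseline arrays (log2 change -1.88), and 212076_at was lowered too (-1.62). Its probe sets 212078_s_at and 212079_s_at had changes of 0.06 and 0.19 with overlapping groups, and there both dinaciclib F and baseline E read below the numbered arrays of their group. SETDB1, a histone lysine methyltransferase that silences retroelements, read 151, 103 and 103 in dinaciclib arrays, against 32.7, 65.3 and 50.4 in baseline arrays (log2 change 1.28) on 214197_s_at. On 203155_at it read 16.5, 31.1 and 28.2 in dinaciclib arrays, against 95.4, 73.1 and 100.1 in baseline arrays (log2 change -1.82). The raised SETDB1 probe set reached 0.83 in the numbered arrays alone. The highest probe sets of MTMR1 (0.8), CEP250 (0.82), SON (0.86), NEDD4L (0.93) and GIT2 (0.99) were also under 1 in the numbered arrays.

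ASXL1, a partner of the histone deubiquitinase BAP1, had probe sets at 64 or more in both groups. Probe set 212238_at read 845, 756 and 529 in dinaciclib arrays, against 313, 345 and 255 in baseline arrays (log2 change 1.2). Probe set 212234_at read 181, 149 and 122 in dinaciclib arrays, against 497, 598 and 519 in baseline arrays (log2 change -1.84), and 212237_at was at -1.74. PDS5A, which regulates the cohesin ring, likewise stayed at 64 or more in both groups. Its probe set 213983_s_at read 1161, 1319.6 and 1133 in dinaciclib arrays, against 135, 180.0 and 177 in baseline arrays (log2 change 2.88). Probe set 213984_at of the same source record was at 2.71. Against these, 212140_at read 377, 359 and 284 in dinaciclib arrays, against 938, 1065 and 1041 in baseline arrays (log2 change -1.58), and 212138_at was at -0.79. Groups overlapped on none of the PDS5A probe sets.

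Among RNA-binding proteins, QKI, a KH-domain protein that steers splicing and is known for isoforms with different ends, had 1 raised, 1 lowered and 4 intermediate probe sets. Probe set 214541_s_at read 141, 213 and 205 in dinaciclib arrays, against 1.99, 3.45 and 1.15 in baseline arrays (log2 change 5.91). Baseline arrays were close to 0, and although this is the highest change of the 26 genes as deposited, with log2(value + 16) it was 3.46, below the 4.02 of SENP6. The intermediate probe sets stayed between -0.14 and 0.33 with overlapping groups. The lowered one, 212636_at, read 142, 171 and 247 in dinaciclib arrays, against 235, 428 and 486 in baseline arrays (log2 change -1.01), and here dinaciclib 5 lay above baseline E. SON, a splicing cofactor of nuclear speckles, read 505, 506 and 372 in dinaciclib arrays, against 177, 259 and 219.7 in baseline arrays (log2 change 1.08) on 213538_at. On 201086_x_at it read 811, 754 and 709 in dinaciclib arrays, against 1873, 2051 and 2031 in baseline arrays (log2 change -1.39), and on 214988_s_at it was at -1.29. Its remaining probe set 201085_s_at was at -0.29.

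Genes of the nuclear envelope and the cytoskeleton followed. NUP160, a scaffold protein of the nuclear pore, read 393, 599 and 438 in dinaciclib arrays, against 80.0, 117 and 129 in baseline arrays (log2 change 2.12) on 214963_at, and 214962_s_at was at 1.68. Probe set 212709_at read 265, 245 and 181 in dinaciclib arrays, against 604, 814 and 684 in baseline arrays (log2 change -1.61). SUN1, which spans the inner nuclear membrane and links the lamina to the cytoskeleton, had a large raised change. Its probe set 214169_at read 901, 1099 and 726 in dinaciclib arrays, against 81.8, 93.5 and 76.0 in baseline arrays (log2 change 3.41). Its lowered probe set 206487_at read 48.2, 23.5 and 36.6 in dinaciclib arrays, against 91.5, 78.6 and 75.7 in baseline arrays (log2 change -1.21). Its probe set 212074_at was between at -0.52.

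DST encodes dystonin, a giant linker of filaments and junctions with epithelial, muscle and neuronal forms, and had 8 probe sets, the most of any of the 26 genes. Probe set 204455_at averaged 9.88 ± 0.17 log2 units in dinaciclib arrays and 7.15 ± 0.27 in baseline arrays (SD, n = 3 each). It read 1068, 934 and 840.0 in dinaciclib arrays, against 116, 143 and 168 in baseline arrays (log2 change 2.73), and 216918_s_at was at 2.27. The lowest, 212253_x_at, read 74.4, 85.4 and 66.2 in dinaciclib arrays, against 285, 249 and 266 in baseline arrays (log2 change -1.82). Lowered as well were 212254_s_at, at -1.22, and 215016_x_at, at -1.16, and 3 more probe sets were below the floor. CEP250, a linker between centrioles, read 103, 70.9 and 52.7 in dinaciclib arrays, against 25.2, 31.5 and 37.3 in baseline arrays (log2 change 1.21) on 210894_s_at. On 209495_at it read 80.7, 56.6 and 37.1 in dinaciclib arrays, against 219, 170.0 and 136 in baseline arrays (log2 change -1.61).

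Genes known from signalling are given next. TRIO had 7 probe sets, with 1 raised, 1 lowered, 2 below the floor and 3 between, among them 209011_at (-0.94) and 208178_x_at (0.26). Its probe set 209012_at read 183, 145 and 126 in dinaciclib arrays, against 780.4, 794 and 836 in baseline arrays (log2 change -2.42). Probe set 209010_s_at read 90.5, 68.9 and 73.2 in dinaciclib arrays, against 13.2, 22.8 and 16.6 in baseline arrays (log2 change 2.11). Another probe set from the source record of the raised one, 209013_x_at, was at 0.2, so probe sets that share a record did not always change by like amounts. SOS2, an exchange factor for Ras, read 67.1, 101 and 114 in dinaciclib arrays, against 17.9, 33.2 and 53.3 in baseline arrays (log2 change 1.5) on 217576_x_at, a set whose probes can match other sequences. On 212870_at it read 333, 284 and 248 in dinaciclib arrays, against 715, 921 and 854 in baseline arrays (log2 change -1.53). GIT2, which switches off ARF GTPases, read 286, 271 and 160.2 in dinaciclib arrays, against 103, 107 and 102 in baseline arrays (log2 change 1.15) on 204982_at. On 209876_at it read 32.6, 57.6 and 42.6 in dinaciclib arrays, against 141, 262 and 222 in baseline arrays (log2 change -2.2).

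Lipid and protein phosphorylation was represented by 4 genes. PIK3CB, a catalytic subunit of phosphoinositide 3-kinase, read 104, 108 and 95.0 in dinaciclib arrays, against 32.3, 27.4 and 35.0 in baseline arrays (log2 change 1.67) on 217620_s_at. On 212688_at it read 276, 229 and 161 in dinaciclib arrays, against 449, 535 and 412 in baseline arrays (log2 change -1.09). MTMR1, a phosphatase of the myotubularin family, read 87.8, 89.5 and 81.9 in dinaciclib arrays, against 23.7, 51.4 and 46.1 in baseline arrays (log2 change 1.15) on 214975_s_at. On 213511_s_at it read 473, 444 and 433 in dinaciclib arrays, against 1063, 893 and 1126 in baseline arrays (log2 change -1.18). Its brightest probe set, 216095_x_at, was at -1.0 after rounding and lay just between the thresholds. PPP2R5C, a regulatory subunit of protein phosphatase 2A, read 169.9, 204 and 167 in dinaciclib arrays, against 45.3, 57.5 and 56.2 in baseline arrays (log2 change 1.75) on 214083_at. On 201877_s_at it read 355, 311 and 361 in dinaciclib arrays, against 1029, 1169 and 1073 in baseline arrays (log2 change -1.67), and 213305_s_at was at -0.36. STK38, a kinase of the NDR family, had a raised probe set with a wide spread between baseline arrays. Its probe set 216727_at read 84.9, 71.8 and 99.6 in dinaciclib arrays, against 29.7, 3.47 and 7.69 in baseline arrays (log2 change 3.01), and with log2(value + 16) the change was 1.87. On 202951_at it read 1522, 605 and 722 in dinaciclib arrays, against 2769, 2410.1 and 2263 in baseline arrays (log2 change -1.5), with dinaciclib F well above the other dinaciclib arrays but below every baseline array.

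TBC1D9, of a family that switches off Rab GTPases, read 146, 124 and 94.5 in dinaciclib arrays, against 45.2, 65.5 and 37.6 in baseline arrays (log2 change 1.29) on 212960_at. On 212956_at it read 354, 462 and 286 in dinaciclib arrays, against 828, 1073 and 859 in baseline arrays (log2 change -1.34). API5, an inhibitor of apoptosis, read 549, 631 and 707 in dinaciclib arrays, against 172, 212 and 296 in baseline arrays (log2 change 1.5) on 214960_at. Probe set 214959_s_at was at 1.1, and 201687_s_at read 466, 549.9 and 526 in dinaciclib arrays, against 895, 1152 and 1189 in baseline arrays (log2 change -1.06). Its remaining probe set 201686_x_at was at 0.41 and its groups overlapped.

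Scaling moved some lowered probe sets by over 1.5 times and ended the membership of some genes. Under median centring the moves of that size were API5 (-0.61), CNOT4 (-0.58), EDRF1 (-0.63), ELK4 (-0.78), MTMR1 (-0.73), PIK3CB (-0.64), QKI (-0.55), SUN1 (-0.76) and TBC1D9 (-0.89), and after quantile normalization they were CNOT4 (-0.56), EDRF1 (-0.65), PIK3CB (-0.70), QKI (-0.59) and SUN1 (-0.77). All stayed below 0. Of the 26 genes, 15 still met the rule under median centring, with SENP6 and SON (-0.94) also just short of -1, and 16 after quantile normalization, where SENP6 was at -0.98, API5 at -0.88, ELK4 at -0.85, MTMR1 at -0.98 and the raised probe set of NEDD4L at 0.96.

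The source records behind the probe sets were compared. The rule did not use the records, but it required opposite changes in each gene. The shares of opposed pairs within the 26 genes are therefore raised by the choice of genes. In the 26 genes, 9 pairs of probe sets at the floor came from the same record, in 7 genes, and 0 of them changed with opposite sign, although their changes differed by up to 2.96 (NFIB). Pairs from different records numbered 74, of which 47 (63.5%) had opposite signs and 31 were opposed past 1, and 43 more pairs lacked a record on at least 1 side. Over all 2200 genes, 102 of 610 same-record pairs (16.7%) and 583 of 2712 different-record pairs (21.5%) had opposite signs, with median differences of 0.23 and 0.25, and 0 of the 610 were opposed past 1. Pairs of a gene share arrays and transcripts, so these shares are descriptions.

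The kinds of probe set were counted. Of 35 raised probe sets, 18 (51.4%) had the plain suffix, 14 (40%) the suffix _s_at for probes shared by several transcripts, and 3 (8.57%) the suffix _x_at. Of 35 lowered ones, 24 (68.6%) were plain, 8 (22.9%) were _s_at and 3 (8.57%) were _x_at, against 38.7%, 47.7% and 13.2% of all 6215 probe sets at the floor. A RefSeq mRNA was the source record of 3 raised (8.57%) and 7 lowered (20%) probe sets, against 31% of the 6215, and an expressed sequence tag that of 6 raised (17.1%) and 13 lowered (37.1%), against 21.1%. The rest came from other GenBank records or had none named. No test was made of these shares, because probe sets of a gene are not independent. With plain probe sets alone, 13 genes met the rule.

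A list of 34 other genes with textbook isoforms or alternative ends, which left out QKI and DST, was read on the same fit. Of the 34, 30 were measured and 25 had several probe sets. The list had 0 of the 26 genes, from which nothing is read, because QKI and DST are among the 26 and were left out. The rule was met by 1.18% of the 2200 genes with 2 or more probe sets at the floor. Among their 107 probe sets, 14 rose (13.1%), 14 fell (13.1%) and 79 did not pass, with a median of -0.13, beside 3.86%, 13.4% and -0.21 over all probe sets. DICER1, the RNase of microRNA processing, rose on 216260_at (log2 change 4.55, standard error 0.23, limma, Benjamini-Hochberg adjusted p = 0.00219) and on 212888_at (0.91, standard error 0.19, limma, Benjamini-Hochberg adjusted p = 0.0234), the second in only 7 of 14 other fits, and its remaining probe sets did not pass. CSTF3, a cleavage stimulation factor, fell on 203947_at (log2 change -3.29, standard error 0.19, limma, Benjamini-Hochberg adjusted p = 0.00293). RBBP6, a further factor of transcript cleavage, fell on 3 probe sets (-1.11, -1.48 and -1.14), the first of which passed in 8 of 14 other fits. MDM2 passed in both directions, on 211832_s_at (3.30) and 217542_at (-1.64, in 8 of 13 other fits), but at means of at most 18.2 and 63.3 neither probe set reached the intensity floor.

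The lettered and the numbered arrays were also read apart. In dinaciclib F relative to baseline E the highest probe sets changed by 1.14 to 5.57 and the lowest by -2.46 to -0.56. Between the numbered arrays the highest changed by 0.80 to 6.08 and the lowest by -2.66 to -1.12. The sign was the same in both for all 26 genes, which the choice of genes favours, and 13 genes lay past 1 in both directions in the lettered and in the numbered arrays alike. Applied to the numbered arrays alone, the rule found 23 genes, 20 of them among the 26. The lettered arrays hold 1 sample per group and give no test.

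**Figure D4:**
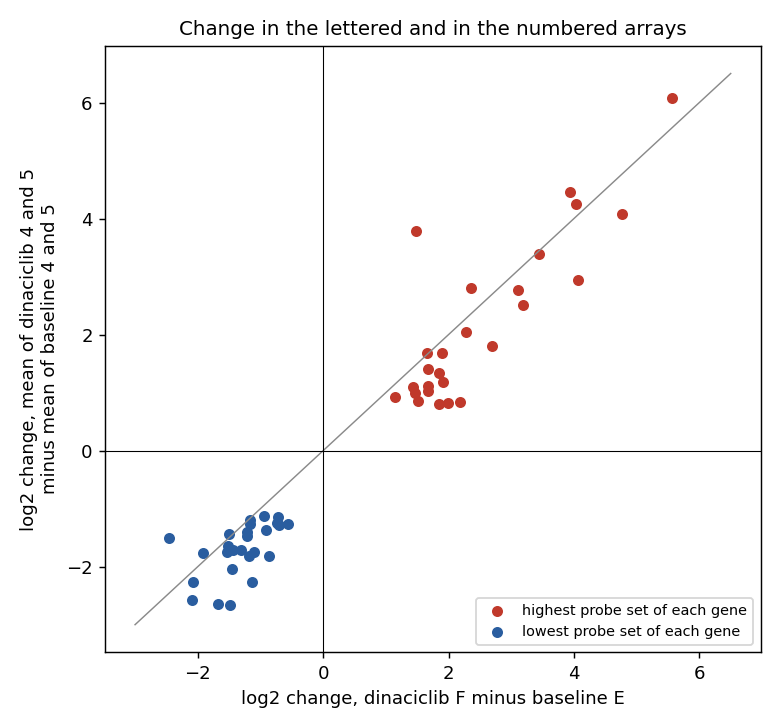
Log2 change of the highest (red) and lowest (blue) probe set of each of the 26 genes in the lettered arrays (x axis, dinaciclib F minus baseline E) and in the numbered arrays (y axis, mean of dinaciclib 4 and 5 minus mean of baseline 4 and 5), with the line of equal change. All red points lie above 0 and all blue points below 0 on both axes, and STK38 lies farthest above the line, at 1.48 and 3.78.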

How the data were processed

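Total RNA of 6 MDA-MB-231 samples was hybridized to 1-colour, biotin-labelled oligonucleotide arrays. Each deposited file gives a linear intensity for every probe set, and array medians differ; the background correction, summarization and scaling that the authors used are not given in the sources used here. Having 3 arrays a group limits the precision. Of 22277 rows, 62 controls were left out of tests. Probe sets were named from the platform annotation, in which 19064 had 1 gene, 1043 several and 2108 none named, and 19052 of the first matched a RefSeq gene table (GRCh38.p14, used for names) by gene identifier, with 0 symbols differing. GenBank record prefixes gave the record classes.

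Values were analysed as log2(value + 1), a scale on which the change of a probe set with readings near 0 depends on the constant added. With log2(value + 16) the raised change of QKI was 3.46 in place of 5.91, and that of STK38 was 1.87 in place of 3.01. A linear model with the group as its only term was fitted to all 22215 probe sets with limma 3.58.1 (lmFit, eBayes) in R 4.3.3, and p-values were adjusted over all of them by the Benjamini-Hochberg method, with a threshold of 0.05. Since the changes chose the genes, no test of them is given. Lists of SUMO pathway, CUL3 and kelch adaptor, nuclear factor I and textbook isoform genes, and the marker lists, were tested or read on the same fit. Named by rule were KLHL20, SENP6 and NFIB, the 20 of the 26 genes with the largest smaller change, those at 64 or more in both groups, the 2 nearest the threshold on either side and every measured NFI and SENP gene; all 26 are described, and other genes of the lists were named after their values were seen. The members and lists were chosen with earlier results of these data known. Correlations of log2 values were 0.963 to 0.972 between arrays of a group and 0.937 to 0.947 across groups, and 0 pairs of arrays were identical. The fit and the rule were tested on simulated data. The rule was applied in Python 3.11.15 and plots used matplotlib 3.10.9.

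Other settings tried were median centring, centring on 45 spiked controls, quantile normalization, log2(value + 16), letter or number as a covariate, a replicate block, each sample left out, limma-trend with robust estimation, dim probe sets left out, other floors and sizes in the rule, plain probe sets alone, and, chosen after seeing the data, the numbered samples alone.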

Additional observations from a re-analysis of the deposited data

How the results depend on the processing

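In every refit the highest and lowest probe sets of all 26 genes kept opposite signs. Of 676 recomputed single changes 0 reversed, though 100 moved by more than 1 SD. The rule chose these probe sets for changes of 1 or more on the same arrays, which favours an unchanged sign, so nothing is read from these counts. The 13 refits behind these counts were not all separate checks. Letter or number as a covariate could not move a change, because the groups were balanced for it. The replicate block gave the same changes as the numbered samples alone. The number of genes meeting the rule was 22 to 26 when each sample was left out, 24 after quantile normalization (16 shared with the 26) and after median centring (15 shared), 25 with spiked controls and 19 with log2(value + 16). It depended on the rule's limits, with 81 genes without an intensity floor, 15 at a higher floor, 8 with 64 required in both groups, 8 at log2 changes of 1.5 and 13 with plain probe sets alone. Of the 26, 10 met the rule in all 13 refits of the arrays and 13 in all 6 that left out a sample. Probe sets called numbered 3828 as reported, 1623 to 3313 when each sample was left out and 2170 in the numbered samples alone, a choice made after seeing the data. Other settings gave more calls, 4467 after quantile normalization, 4700 with letter or number as a covariate, 5034 with bright probe sets only, 5280 with log2(value + 16), 5321 with limma-trend and 5425 under median centring, and centring on spiked controls gave 2938. Those called in related genes numbered 38, with 20 to 30 when each sample was left out and 66 under median centring. With a replicate block for the shared numbers 4 and 5, limma called 0 of all probe sets and 0 of those in related genes at an adjusted p under 0.05, with 1 residual degree of freedom and 6799 probe sets at an unadjusted p under 0.05, and the rule found 23 genes. F and E share no number, so each formed a block of its own, and that fit rested on the arrays numbered 4 and 5. Deviations from group means correlated at 0.0826 between the arrays numbered 4, 0.0765 between those numbered 5 and 0.169 between F and E. Each correlation was higher than with any other array of the other group, which is a hint from the data. The numbers that open the sample titles also run in sequence within each of these couples, but no label states a pairing. A fit with F and E as a further pair was not run. Signals near or under the floor of 64 make the size of many raised changes uncertain.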
